A study of Mus musculus with 10 samples.

Results

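The genes described here encode 3 families of RNA-binding proteins that control the use of other mRNAs after transcription, the Musashi, LIN28 and IGF2BP proteins. They were taken by symbol from the authors' gene expression table, in which Lin28a carries its older name Lin28. All 7 named genes (Msi1, Msi2, Lin28a, Lin28b, Igf2bp1, Igf2bp2 and Igf2bp3) were found among 26857 entries. Their iCLIP clusters were taken by position, which gave 52 of the 35639 clusters in the deposited list.

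Musashi proteins bind short UAG-containing sites in mRNA and adjust translation of their targets, and Msi1 is widely used as a marker of neural progenitor cells. LIN28 proteins bind the precursors of let-7 microRNAs and block their maturation, and they also bind many mRNAs directly. Lin28a is abundant in pluripotent stem cells, and Lin28b is its paralog. IGF2BP proteins, also called IMP proteins, bind mRNAs through KH and RRM domains, protect them from decay and act as readers of N6-methyladenosine. Mature let-7 in turn represses Lin28 and Igf2bp mRNAs, so the LIN28 and IGF2BP families are linked in a shared circuit.

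The let-7 sequences are shown because this microRNA family is the RNA that LIN28 acts on and defines the list of let-7 target mRNAs used below. All 9 mature 5p arms of the mouse family matched in RefSeq (build GRCm38.p6) carry the same seed, which is in capitals (bases 2 to 8), and 4 of them are printed.
mmu-let-7a-5p: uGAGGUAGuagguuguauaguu
mmu-let-7d-5p: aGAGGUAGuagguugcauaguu
mmu-let-7g-5p: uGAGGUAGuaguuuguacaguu
mmu-miR-98-5p: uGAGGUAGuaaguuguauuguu
The zinc knuckles of LIN28 are known to bind a GGAG motif in the loop of the precursor. GGAG was searched on the RNA strand between the mature arms and was found in 9 of the 12 let-7 family hairpins in RefSeq. It was found in 8.07% of the 644 mouse hairpins for which both arms are listed. The hairpin of let-7g holds the motif (in capitals) and that of let-7b does not.
Mirlet7g: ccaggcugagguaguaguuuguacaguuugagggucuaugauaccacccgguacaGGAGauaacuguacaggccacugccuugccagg
Mirlet7b: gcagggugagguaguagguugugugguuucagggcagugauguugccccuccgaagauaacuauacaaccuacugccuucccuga
The match is a description of these letters, and let-7 levels were not analysed here.

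All cells were V6.5 mouse embryonic stem (ES) cells grown on gelatin with ESGRO. For RNA-seq they carried a lentiviral hairpin against Rbfox2 (shFox2-1 or shFox2-2) or a control hairpin (shLuc against luciferase or shGFP against GFP). All of them had 3 days in puromycin at 1 µg/ml and then 24 h without it. Rbfox2 regulates alternative splicing through binding to RNA, and the question addressed was its control over mRNAs that encode RNA-binding proteins. Each hairpin was infected in biological duplicate, and the authors' table pools the 2 libraries into 1 value. Expression is therefore compared over 2 Rbfox2 hairpins and 2 control hairpins. For iCLIP, which recovers RNA crosslinked to a protein, cells held a doxycycline-inducible FLAG-HA-tagged human RBFOX2, or the untagged human protein as control. After hygromycin selection, doxycycline was given at 1 µg/ml for 24 h before crosslinking at 150 mJ/cm2, and the untagged library had 7 more PCR cycles than the 16 of the tagged one. The binding data thus come from added human protein in mouse cells, with 1 library each and no replicate.

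Levels are FPKM, that is fragments counted per kilobase of a transcript and scaled to the library, each with the deposited confidence interval given in brackets or after the value. FPKM is per length, which allows levels to be set side by side between genes. The spans listed for Lin28b, Msi2 and Igf2bp1 leave out clusters with their gene IDs, so the order of levels and the family shares hold for the listed spans. A gene is called expressed at a mean of at least 1 FPKM over the 4 hairpins and without a failed status, which 12632 entries met. The targeted gene Rbfox2 (listed as Rbm9) lay at 32.9% of the control mean over the 2 Rbfox2 hairpins, and its intervals were clear of both control intervals in both. Of the ES cell markers, 11 of 12 were found and each averaged at least 1 FPKM, with Pou5f1 between 268 and 336 FPKM. The summed level of those markers was 1705 and 1422 FPKM in shFox2-1 and shFox2-2, against 1417 and 1581 FPKM in shLuc and shGFP. The embryonic fibroblast markers had 7 of 9 found members under 1 FPKM, and Lum was listed at 0. Their sums were 23.7 and 19.9 FPKM in shFox2-1 and shFox2-2, against 20.8 and 24.2 in shLuc and shGFP. Primitive endoderm markers had 5 of 7 members under 1 FPKM, with sums of 7.88 and 7.93 FPKM against 7.75 and 7.16. The trophoblast markers summed to 80.1 FPKM in shFox2-1 and 46.4 in shFox2-2, against 43.1 in shLuc and 47.7 in shGFP, and 4 of 7 were under 1 FPKM.

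The 7 genes spanned a wide range of levels. Igf2bp1, with a mean of 115 FPKM over the 4 hairpins, and Lin28a, with 94.4 FPKM, stood highest. Only 3.22% and 4.21% of expressed entries lay at or above them. The Igf2bp1 level rests on estimates with a failed status in every hairpin except shLuc. Igf2bp3 followed with a mean of 36.7 FPKM, Msi2 with 24.6, Msi1 with 9.92, Igf2bp2 with 7.10 and Lin28b with 1.47. The order of the levels was the same in shFox2-2, shLuc and shGFP. In shFox2-1, Igf2bp2 (6.60 FPKM) stood above Msi1 (5.74 FPKM), with overlapping intervals. The intervals of Igf2bp1 and Lin28a did not overlap in either Rbfox2 hairpin, and overlapped in both control hairpins. Igf2bp3 and Msi2 overlapped in shFox2-1 only, at 28.8 and 26.9 FPKM, and every other pair of neighbours in the order had intervals apart.

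**Figure D1:**
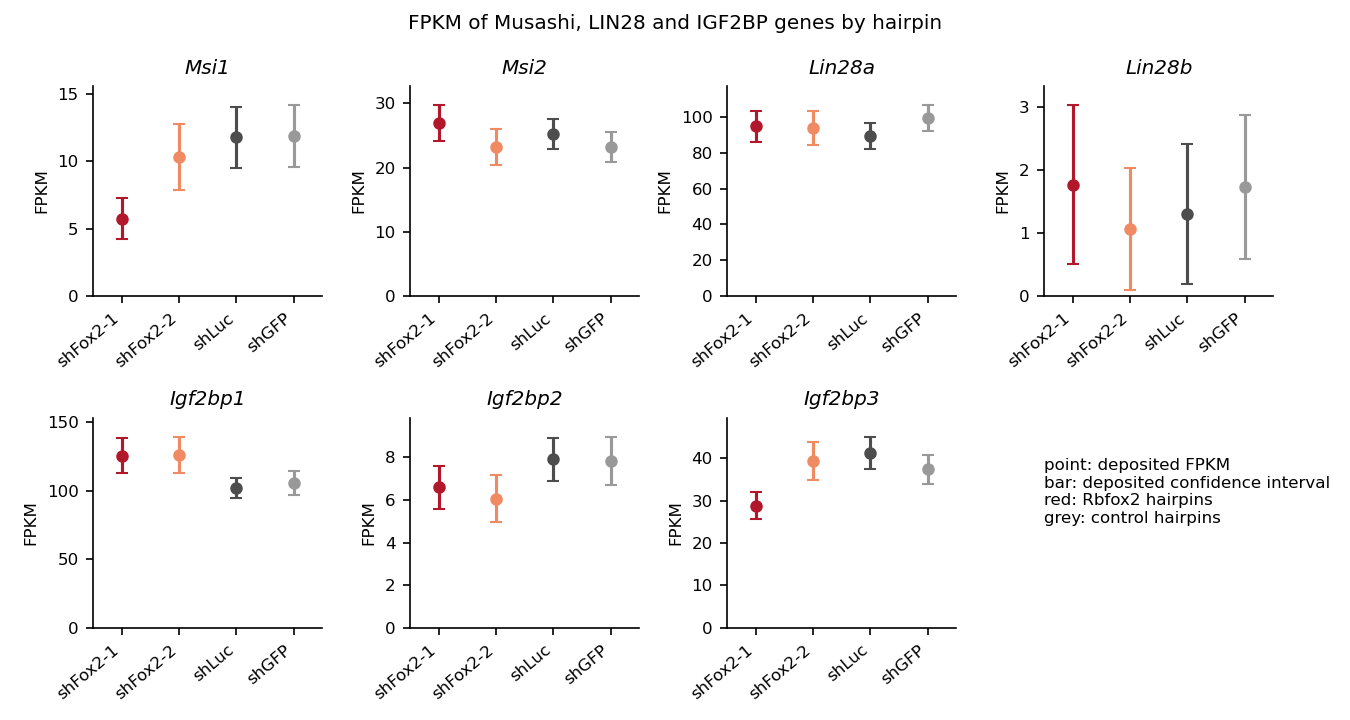
FPKM of each gene (y axis, linear, a separate scale per panel) in the 2 Rbfox2 hairpins (red shades) and the 2 control hairpins (grey shades), with points for the deposited value and bars for its confidence interval. Msi1 in shFox2-1, at 5.74 FPKM, and Igf2bp3 in shFox2-1, at 28.8 FPKM, lie below both control intervals, and both Igf2bp1 values of the Rbfox2 hairpins lie above both control values. The Igf2bp1 estimates had a failed status in every hairpin except shLuc.

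Msi1 (mm9 chromosome 5, 115879693 to 115904211) stood at 5.74 FPKM (4.21 to 7.26) in shFox2-1 and 10.3 FPKM (7.87 to 12.7) in shFox2-2, against 11.8 in shLuc (9.47 to 14.1) and 11.9 in shGFP (9.57 to 14.2). The shFox2-1 interval lay below both control intervals, and the shFox2-2 interval overlapped both. The shFox2-1 value was 48.5% of the control mean and the shFox2-2 value 87.2%. Of all expressed entries, 0.309% had a log2 ratio over the control mean as low as that of Msi1 in shFox2-1, whereas 32.1% were as low in shFox2-2. With both hairpins together the log2 fold change of FPKM + 1 was -0.55 (standard error 0.26). It did not pass limma's test (adjusted p = 0.978 over 20281 entries, unadjusted p = 0.0803). Without shFox2-2 the log2 fold change was -0.93, and without shFox2-1 it was -0.18. The shGFP estimate of Msi1 had a low-data status.

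Values of other neural progenitor markers stand beside those of Msi1. Nes, an intermediate filament of progenitors, stood at 3.87 FPKM in shFox2-1 and 7.92 in shFox2-2, against 8.49 in shLuc and 9.69 in shGFP. Sox1, an early neural transcription factor, stood at 1.48 and 2.22 FPKM against 3.38 and 3.27, and Sox3 at 0.770 and 1.67 against 1.81 and 2.13. Pax6 did not show that order, at 4.49 and 5.12 FPKM against 5.20 and 4.55. Neither did the neuronal tubulin Tubb3, which was highest in shFox2-1, at 38.3 and 24.7 FPKM in shFox2-1 and shFox2-2, against 27.3 and 32.1 in shLuc and shGFP. Of the 9 markers found, 5 were expressed, 3 of those 5 had both Rbfox2 hairpins below both controls (17.8% of all expressed entries), and none had both above (14.3%). Sox1 alone had an unadjusted limma p under 0.05, at 0.0204, as did 4.48% of all entries tested. The summed marker level, most of it from Tubb3, was 49.3 and 42.4 FPKM in shFox2-1 and shFox2-2, against 47.1 and 52.3 in shLuc and shGFP. In shFox2-1, the hairpin with the low Msi1 and Igf2bp3 values, 4 of the 11 ES cell markers (Zfp42, Esrrb, Klf4 and Tbx3, named after their values were seen) lay above both control intervals, as did 5.44% of expressed entries. There 0 of the 11 lay below (2.11%), and Pou5f1, at 300 FPKM, lay between shLuc (285) and shGFP (336). So did 3 of 3 expressed trophoblast markers (Tfap2c, Krt8 and Krt18) lie above both control intervals in shFox2-1. In shFox2-2, 0 of the 11 ES cell markers were clear of both controls. Klf4 stood at 27.0 and 13.3 FPKM in shFox2-1 and shFox2-2, against 15.0 in both controls, and Tbx3 at 14.5 and 5.51 against 5.10 and 5.24. The part of these markers' cells in the Msi1 and Igf2bp3 levels was not tested. In such bulk RNA, fewer cells of a type and less RNA per cell cannot be told apart.

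Msi2 (mm9 chromosome 11, 88152883 to 88403651), the more abundant Musashi gene here, stood at 26.9 FPKM (24.1 to 29.7) with hairpin shFox2-1 and at 23.2 FPKM (20.4 to 26.0) with shFox2-2. In the controls it stood at 25.2 FPKM in shLuc (22.8 to 27.5) and 23.2 in shGFP (20.9 to 25.5). All 4 intervals overlapped one another. For Msi2 the log2 fold change was 0.048 (standard error 0.13, limma adjusted p = 0.994). Msi1 thus made up 17.6% of the summed Musashi FPKM in shFox2-1 and 30.7% in shFox2-2, against 31.9% in shLuc and 33.9% in shGFP. With each gene at the opposite ends of its interval, the Msi1 share could lie between 12.4% and 23.2% in shFox2-1. The range was 25.6% to 38.1% in shLuc and 27.3% to 40.4% in shGFP. In shFox2-2 it was 23.2% to 38.4%, which overlapped both control ranges.

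Lin28a (mm9 chromosome 4, 133559244 to 133574731) stood at 94.9 FPKM (86.1 to 103.6) in shFox2-1 and 93.9 FPKM (84.6 to 103.3) in shFox2-2, against 89.4 in shLuc (81.9 to 96.9) and 99.3 in shGFP (92.0 to 106.6). The Rbfox2 hairpins lay between the controls, and averaged 100.1% of them. On the log2 scale the change was 0.0027 (standard error 0.10, limma adjusted p = 0.998). Lin28b (mm9 chromosome 10, 45188630 to 45190151) stood at 1.77 FPKM (0.503 to 3.04) in shFox2-1 and 1.07 FPKM (0.1001 to 2.04) in shFox2-2, against 1.31 in shLuc (0.194 to 2.42) and 1.74 in shGFP (0.595 to 2.88). Its intervals were wide and all overlapped, and no difference was detected (log2 fold change -0.070, standard error 0.20, limma adjusted p = 0.994). The shGFP estimate of Lin28b had a low-data status. The entry for Lin28b covers 1.52 kb, and clusters carrying its gene ID lay outside that span, so its FPKM describes the listed span only. Lin28a made up 98.2% to 98.9% of the summed LIN28 FPKM in the 4 hairpins.

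Igf2bp1 (mm9 chromosome 11, 95824045 to 95867226) stood at 125.8 FPKM (113.2 to 138.4) in shFox2-1 and 126.5 FPKM (113.3 to 139.7) in shFox2-2, against 102.2 in shLuc (94.9 to 109.6) and 105.6 in shGFP (97.0 to 114.2). Both Rbfox2 hairpins lay above both controls in value. Their intervals were clear of shLuc and overlapped shGFP by 1.07 FPKM in shFox2-1 and 0.942 FPKM in shFox2-2. The authors' status for this gene was FAIL in every hairpin except shLuc, so it was left out of the fit over 20281 entries. With failed entries kept, an alternative chosen after seeing the data, its log2 fold change was 0.28 (standard error 0.09). The limma adjusted p was then 0.977 over 20380 entries, and the unadjusted p was 0.0276. The Rbfox2 hairpins averaged 121.3% of the controls.

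Igf2bp2 (mm9 chromosome 16, 22059127 to 22163092) stood at 6.60 FPKM (5.59 to 7.60) with hairpin shFox2-1 and at 6.06 FPKM (4.97 to 7.15) with shFox2-2. The controls stood at 7.91 FPKM in shLuc (6.90 to 8.92) and 7.85 in shGFP (6.72 to 8.98). Both Rbfox2 hairpins lay below both controls in value, at 83.7% and 76.9% of their mean, while each interval overlapped both control intervals. Its log2 fold change was -0.28 (standard error 0.14, limma adjusted p = 0.978, unadjusted p = 0.0996).

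Igf2bp3 (mm9 chromosome 6, 49035219 to 49164712) stood at 28.8 FPKM (25.7 to 32.0) in shFox2-1 and 39.4 FPKM (34.9 to 43.9) in shFox2-2, against 41.4 in shLuc (37.5 to 45.2) and 37.4 in shGFP (34.0 to 40.8). The shFox2-1 interval lay below both control intervals, and the shFox2-2 value lay between the controls. The shFox2-1 value was 73.2% of the control mean and the shFox2-2 value 100.01%. For Igf2bp3 the log2 fold change was -0.22 (standard error 0.17, limma adjusted p = 0.978). Without shFox2-2 it was -0.43, and without shFox2-1 it was 0.0019. The shLuc estimate of Igf2bp3 had a low-data status.

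As a share of the summed IGF2BP FPKM, Igf2bp1 made up 78.0% in shFox2-1 and 73.6% in shFox2-2, against 67.5% in shLuc and 70.0% in shGFP. With Igf2bp1 and the other genes at opposite ends of their intervals, its share could lie between 74.1% and 81.6% in shFox2-1. That range was 69.0% to 77.8% in shFox2-2, which overlapped both shLuc (63.7% to 71.1%) and shGFP (66.1% to 73.7%). Igf2bp3 made up 17.9% and 22.9% in shFox2-1 and shFox2-2, against 27.3% and 24.8% in shLuc and shGFP. Igf2bp2 made up 4.09% and 3.53%, against 5.22% and 5.20%. The family sum was 161 and 172 FPKM in shFox2-1 and shFox2-2, against 152 and 151 FPKM in shLuc and shGFP. These shares rest on the Igf2bp1 estimates with failed status.

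**Figure D2:**
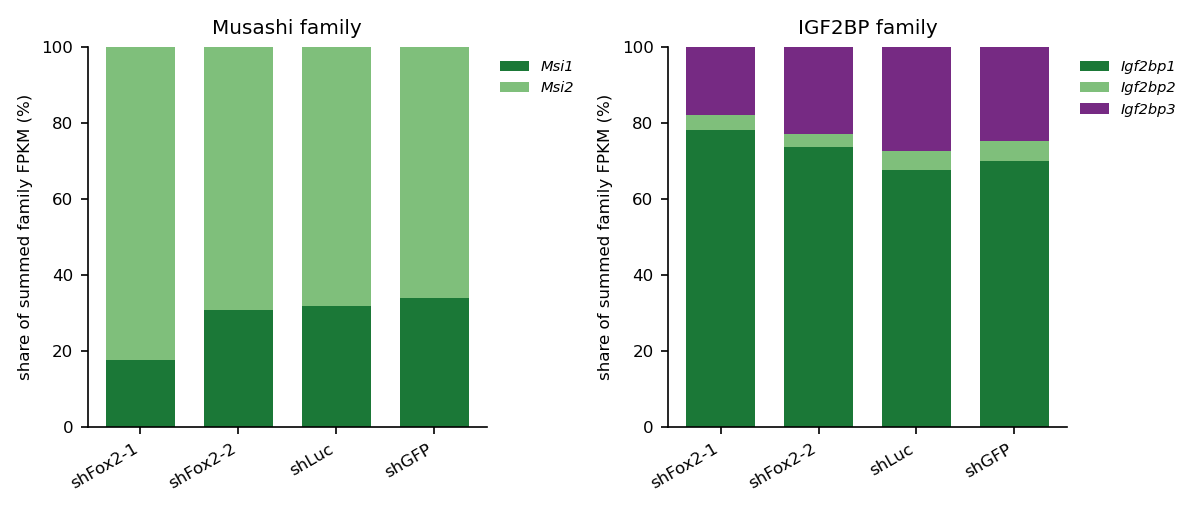
Share of the summed FPKM of the Musashi and IGF2BP families (y axis, percent) held by each gene in each hairpin, stacked to the family total. Msi1 holds 17.6% in shFox2-1 and 30.7% in shFox2-2, against 31.9% and 33.9% in shLuc and shGFP. Igf2bp1 holds 78.0% and 73.6% in the Rbfox2 hairpins against 67.5% and 70.0% in the controls. The IGF2BP shares rest on Igf2bp1 estimates with a failed status in every hairpin except shLuc.

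None of the 6 genes tested passed limma's adjusted p of 0.05, and none of the 6 had an unadjusted p under 0.05. Of all 20281 entries 0 passed (0%), Rbfox2 included (adjusted p = 0.913), and 908 (4.48%) had an unadjusted p under 0.05. With only the 12632 expressed entries in the limma fit, Rbfox2 passed (adjusted p = 0.0471) and was the 1 entry to do so, and Msi1 had an unadjusted p of 0.0380 (adjusted p = 0.9996). The p here measures the spread between hairpins, not between cultures. A stricter reading of the deposited intervals asked that those of both Rbfox2 hairpins lie above, or both below, those of both controls. None of the 6 met it, against 37 of 12632 expressed entries (0.293%), of which 22 lay higher (0.174%) and 15 lower (0.119%). For shFox2-1 alone, 2 of the 6 (Msi1 and Igf2bp3) lay below both control intervals, against 2.11% of expressed entries below and 7.55% in either direction. For shFox2-2 alone, 0 of the 6 were clear of both controls, against 2.33% in either direction, 0.348% above and 1.98% below. By value alone, Msi1 and Igf2bp2 lay below both controls in both Rbfox2 hairpins, as did 17.8% of expressed entries. With failed entries kept, Igf2bp1 lay above in value, as did 14.4% of 12727 expressed entries. In that set 0 of the 7 were separated by interval (0.322% of entries), and 1, Igf2bp1, had an unadjusted limma p under 0.05 (4.51% of entries tested).

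The hairpins differed in overall scale. The median expressed entry stood at a log2 ratio of 0.07 over the control mean in shFox2-1 and -0.09 in shFox2-2. With each hairpin centred on its median gene, Msi1 was at 45.6% of the control mean in shFox2-1 and 95.3% in shFox2-2, and Igf2bp3 at 68.7% and 109.1%. Both remained below both control intervals in shFox2-1. Igf2bp1 was then at 113.6% in shFox2-1 and 133.0% in shFox2-2, and the shFox2-2 interval lay above both controls while that of shFox2-1 did not. Igf2bp2 was at 78.6% and 84.0%.

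**Figure D3:**
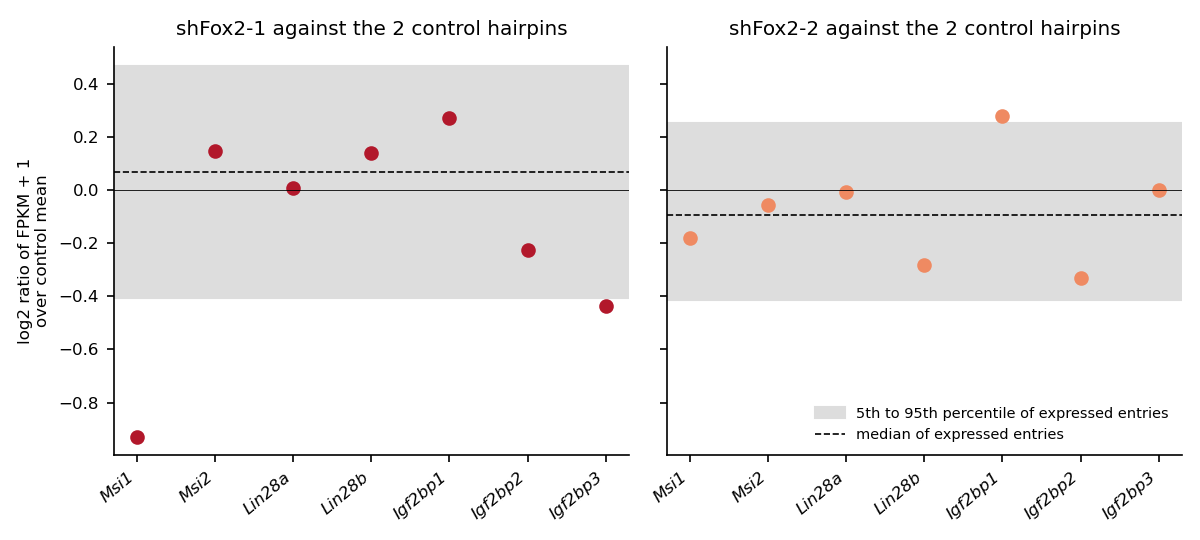
Log2 ratio of FPKM + 1 over the control mean (y axis) for each gene in shFox2-1 (left) and shFox2-2 (right), with the 5th to 95th percentile of expressed entries in grey and their median dashed. Msi1 (-0.93) and Igf2bp3 (-0.43) fall under the grey band in shFox2-1, and Igf2bp1 (0.28) is above it in shFox2-2. The Igf2bp1 ratios rest on estimates with failed status.

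Binding of RBFOX2 to these transcripts was read from the clusters of the tagged library that were enriched over the untagged one. Coverage, fold over the untagged library and q-value are the authors' own values and serve here only to describe clusters within the list. Of the 7 genes, 6 had at least 1 cluster in their locus, against 54.7% of expressed loci. These counts take no account of locus length, and Igf2bp1, with its failed status, is not among those expressed loci. By the gene ID attached to each cluster, all 7 had clusters, 80 in total. The difference came from 20 clusters of Msi2, 5 of Igf2bp1 and 3 of Lin28b that lay outside the spans given in the expression table. Every cluster in the 7 loci carried the ID of that gene, and within a gene all lay on 1 strand. Exon and intron boundaries and cluster sequences on mm9 were not used here, so positions are given as distances along the locus.

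Msi2 held 30 clusters in its 250.8 kb locus, a number that 0.530% of expressed loci matched or exceeded. Its density, 1.20 clusters per 10 kb, was reached by 20.6% of expressed loci. By gene ID it had 50 clusters, which 0.336% of the 7740 gene IDs with clusters matched or exceeded. The cluster of highest coverage (5652, fold 4.25) lay at mm9 chr11:88176535-88177165 on the minus strand, at 90.5% of the way from the 5′ to the 3′ edge of the locus. In all, 9 clusters lay at or beyond 90% of that way. A second strong cluster (coverage 4813, fold 8.61) lay at -60.7 kb from the listed 5′ edge, thus upstream of it, at chr11:88464109-88464576. Of the 20 clusters upstream of that edge, 7 overlapped an entry named LOC100038945. By gene ID, the highest finite folds among the 7 genes were also those of Msi2, 17.78 at chr11:88547377-88547459 and 13.26 at chr11:88290994-88291157. The first lay outside the listed locus, at -143.8 kb from its 5′ edge, and overlapped LOC100038945. The second lay inside the locus. In 19 of its 50 clusters the untagged library had no reads, which the authors give as an infinite fold.

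Msi1 had 2 clusters, 1342 bases apart and both without reads in the untagged library. They lay 16.0 kb and 17.3 kb into the 24.5 kb locus on the plus strand, at chr5:115895643-115895711 (coverage 222) and chr5:115896961-115897059 (coverage 419). Of expressed loci, 40.1% held as many or more, and 29.7% reached its density of 0.816 clusters per 10 kb.

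In Lin28a all 4 clusters lay in the last 2.68 kb of the 15.5 kb locus. The cluster of highest coverage (1656, fold 1.17) lay at chr4:133560672-133560914, and that nearest the 3′ edge (coverage 1264, fold 1.83) at chr4:133559272-133559373. The other 2 had folds of 1.36 and 1.47. All 4 were thus under a fold of 2, as were 11.7% of the clusters of the whole list. Of that list, 99.6% of clusters had a fold of at least 1.17, and 90.5% one of at least 1.83. Lin28b had 3 clusters by gene ID, with coverages of 156, 165 and 450 against a median of 374 over the list, and no untagged reads in any of them. They were spread over 32.5 kb, 1 upstream and 2 downstream of the listed 1.52 kb entry. The strongest lay at chr10:45166387-45166478.

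In Igf2bp1 the 9 clusters with its ID fell into 4 inside the locus and 5 just beyond its 3′ edge, the nearest at -0.068 kb and the farthest at -5.165 kb on a scale that runs negative past that edge. The farthest, at chr11:95818731-95819016, had the highest coverage of the gene (1475, fold 1.94). The 5 outer clusters had folds between 1.45 and 3.86. The 4 inner ones gave a density of 0.926 clusters per 10 kb, reached by 26.7% of expressed loci. Inside the locus a pair of clusters with summits 128 bases apart lay 5.05 kb and 5.18 kb from the 3′ edge, and 1 of this pair had no untagged reads.

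Igf2bp2 held 7 clusters over 104.0 kb. Its strongest (coverage 2143, fold 3.83) lay 16.0 kb from the 5′ edge at chr16:22147016-22147251, and the next (coverage 1160, fold 2.08) 0.861 kb from the 3′ edge at chr16:22059904-22060084. The 4 clusters without untagged reads lay between these, with coverages of 171 to 276. Igf2bp3 held 5 clusters over 129.5 kb, none within 20 kb of either edge, and its strongest (coverage 573, fold 2.91) lay at chr6:49059347-49059440. Their densities, 0.673 and 0.386 clusters per 10 kb, were reached by 34.3% and 44.4% of expressed loci.

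**Figure D4:**
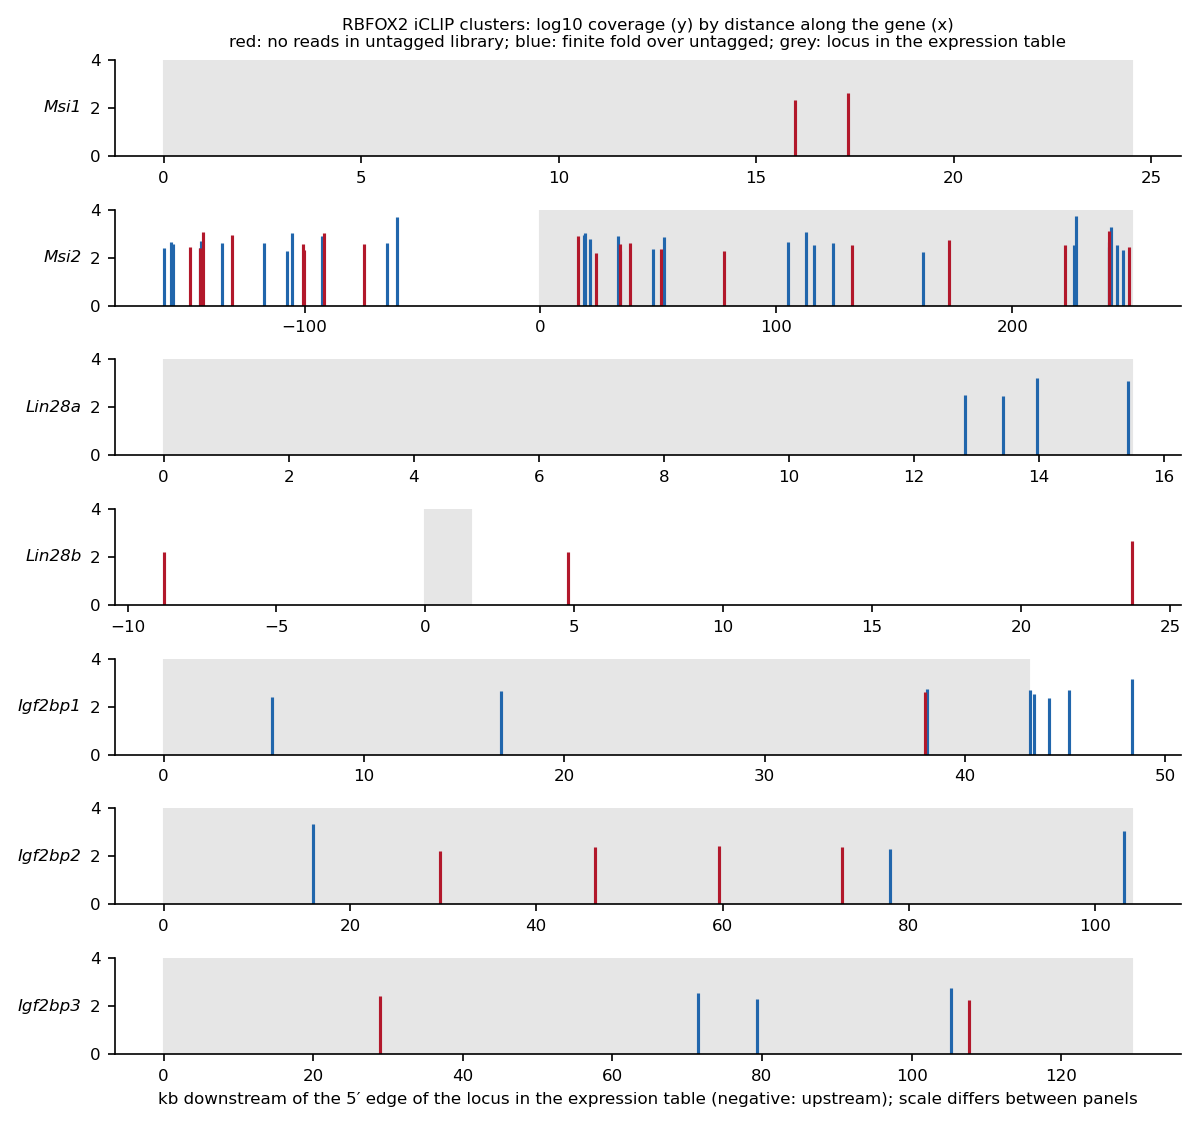
Position of each iCLIP cluster by gene, as distance in kb from the 5′ edge of the locus in the expression table (x axis, a separate scale per panel), with bar height for log10 coverage. Red bars had no reads in the untagged library, blue bars had a finite fold, and grey marks the listed locus. The 4 Lin28a clusters stand near the 3′ edge, and 20 Msi2 and 5 Igf2bp1 clusters stand outside the grey span.

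Over the 80 clusters, 31 (38.8%) had no untagged reads, against 44.9% of the whole list, and 18 (22.5%) had a fold under 2, against 11.7%. Dividing coverage by fold gives the level of the untagged library that the fold implies. That quotient was 112 within 1% for 17 of the 49 clusters of finite fold, and for 33.5% of the 19639 finite clusters in the list. For those clusters the fold is proportional to the coverage.

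**Figure D5:**
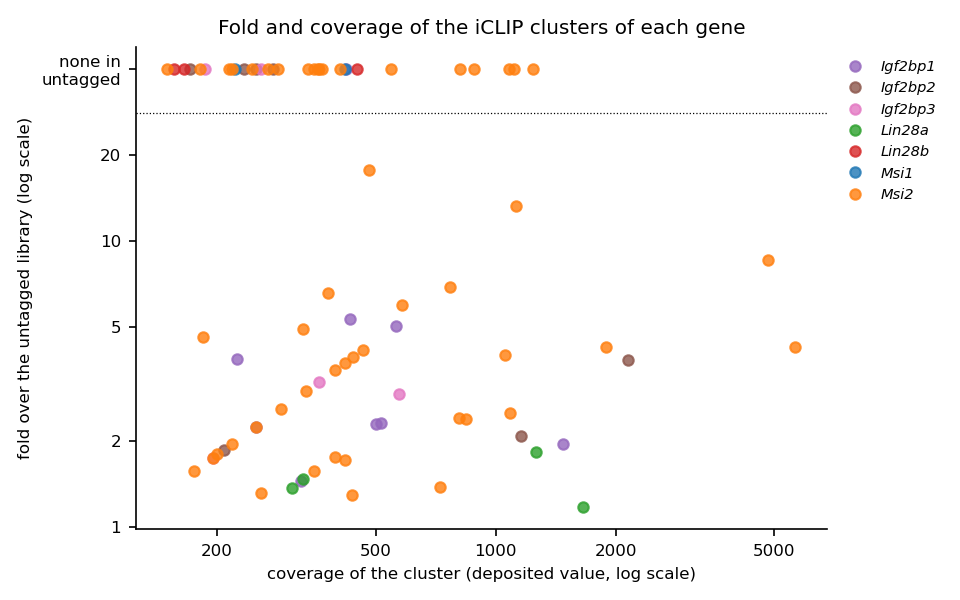
Fold over the untagged library (y axis, log scale, with clusters that had no untagged reads on the top line) against coverage (x axis, log scale) for the 80 clusters, coloured by gene. The 4 Lin28a clusters lie under a fold of 2, and both Msi1 and all 3 Lin28b clusters lie on the top line.

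Genes linked to these families were read from 5 lists. Counts of members with both Rbfox2 values above or below both controls are over expressed members, and stand beside 14.3% above and 17.8% below among all expressed entries. Across the lists 0 genes were separated by interval, 0 passed limma's adjusted p of 0.05, and 1 in each of the let-7 target and N6-methyladenosine lists had an unadjusted p under 0.05. In the list of let-7 processing factors and LIN28 cofactors, 14 of 14 were tested, with a median log2 fold change of 0.07 against -0.0024 over all tested entries. There 2 members, Drosha and Dgcr8, the nuclear enzyme that cuts primary microRNAs and its partner, had both Rbfox2 hairpins above both controls, and 0 had both below. Drosha stood at 71.3 and 64.3 FPKM in shFox2-1 and shFox2-2, against 55.2 and 58.0 in shLuc and shGFP. Dgcr8, named after its values were seen, stood at 29.7 and 24.5 FPKM against 21.3 and 21.7. Hnrnpa1, a nuclear RNA-binding protein known to act on let-7 processing, stood at 66.4 and 51.7 FPKM against 68.4 and 58.8. For shFox2-1 alone 5 of the 14 lay above both control intervals (5.44% of all expressed entries), and for shFox2-2 alone 2 lay below (1.98%). The shFox2-1 count was 4 of 17 expressed IGF2BP partners and targets and 3 of 12 N6-methyladenosine genes. It was 2 of 27 let-7 targets and 0 of 13 Musashi targets and partners. Below both control intervals in shFox2-2 were 3, 0, 1 and 1 members of these lists, in the same order. In the opposite directions, 2 let-7 targets lay below both controls in shFox2-1 (2.11% of expressed entries). In shFox2-2, 1 let-7 target lay above both (0.348%). Each of the other lists had 0 in both of these counts.

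Of 30 let-7 target mRNAs, which include 5 of the 7 genes above, 27 were tested, with a median log2 fold change of -0.06. Both Rbfox2 hairpins lay above both controls in 3 and below in 6. The most abundant, the chromatin protein gene Hmga1, stood at 553 and 660 FPKM in shFox2-1 and shFox2-2, against 607 and 654 in shLuc and shGFP. Irs2, an adaptor of insulin signalling chosen after its values were seen, stood at 3.82 and 4.18 FPKM against 5.67 and 6.33. Its log2 fold change was -0.48 (standard error 0.16) with an unadjusted limma p of 0.0230, which did not pass adjustment. Ccnd1, also chosen after its values were seen, was listed at 0 in shFox2-1, shLuc and shGFP, with both bounds at 0. In shFox2-2 it was listed at 23.9 FPKM (20.7 to 27.0). The Rbfox2 hairpins thus differed, and Ccnd1 was not separated by interval. The cause of the listed zeros was not tested, and they are not read here as absence of the mRNA.

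Of 19 IGF2BP partners and targets 18 were tested, with a median log2 fold change of 0.02. Of the 17 expressed ones, both Rbfox2 hairpins lay above both controls in 2 and below in 0. Actb, whose mRNA IGF2BP1 localizes, stood at 510 and 435 FPKM against 428 and 504, and Ybx1, a partner on shared mRNAs, at 205 and 201 against 186 and 206. In both genes the values of the groups overlapped. H19 and Igf2, neighbouring imprinted genes chosen after their values were seen, were high in shFox2-1. H19 stood at 38.1 and 11.2 FPKM in shFox2-1 and shFox2-2, against 10.8 and 14.3 in shLuc and shGFP. Igf2 stood at 16.2 and 6.51 FPKM, against 5.91 and 6.90.

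Of 14 N6-methyladenosine writers, erasers and other readers 12 were found and tested, with a median log2 fold change of 0.10, 3 members with both Rbfox2 hairpins above both controls and 1 below. Ythdf1, a cytoplasmic reader, stood at 74.6 and 73.0 FPKM against 61.6 and 62.4, with a log2 fold change of 0.25 and an unadjusted limma p of 0.0477. Ythdf2, a reader that promotes decay, stood at 45.2 and 41.5 FPKM against 38.1 and 40.5. Of 16 Musashi targets and partners 14 were tested, with a median of -0.09, and of the 13 expressed ones 2 lay above and 5 below. The initiation factor gene Eif4g1 stood at 213.1 and 213.0 FPKM against 187.6 and 195.5, and Pabpc1, a poly(A)-binding protein, at 190.6 and 157.0 against 156.2 and 180.7. Numb, the classical Musashi target and an inhibitor of Notch, was chosen after its values were seen. It stood at 7.67 and 7.499 FPKM in shFox2-1 and shFox2-2, against 9.67 and 9.47 in shLuc and shGFP (log2 fold change -0.30, limma adjusted p = 0.978).

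The entries whose levels varied most like those of the most abundant gene of each family were taken by Euclidean distance between deviations of log2(FPKM + 1) over the 4 hairpins, among entries with a mean of at least 5 FPKM. For Igf2bp1 these were LOC100043622 (distance 0.0061), Nploc4 (0.0070) and Dscr1 (0.010). The Igf2bp1 values matched here had a failed status in every hairpin except shLuc. Nploc4 stood at 37.9 and 38.3 FPKM in shFox2-1 and shFox2-2, against 30.8 and 31.7 in shLuc and shGFP. For Lin28a they were LOC545600 (0.019), Pik4ca (0.022) and LOC270148 (0.026). For Msi2 they were the joint entry of Tarsl2 and Tm2d3 (0.015), LOC677785 (0.023) and Nek7 (0.024). A distance over 4 values describes these hairpins only.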

How the data were processed

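The series holds 8 RNA-seq libraries, 2 with each of the 4 hairpins, and 2 iCLIP libraries. The deposited table has an FPKM for every gene and hairpin with its confidence bounds and a status, per the file headers. The submitters' processing notes name TopHat2 2.0, Cufflinks 2.1.1 and mm9. The gene annotation, the scaling between hairpins and the cluster caller are not given in the sources used here, and depth is unknown. Each deposited cluster carries a coverage, a fold and a q-value against the untagged library, all set by the authors. Coordinates of clusters are 1-based.

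From these, log2(FPKM + 1) was compared, 2 Rbfox2 against 2 control hairpins, with limma 3.58.1 (R 4.3.3), a mean-variance trend and Benjamini-Hochberg adjustment over 20281 entries. Entries with a failed status (105) or at 0 in every hairpin (6477) were left out. Fold changes on this scale understate those of low genes. Clusters were assigned to a locus by an overlap of at least 1 base. The genes and lists were chosen with earlier results of these data known. Named list genes are those separated by interval, or the 2 of highest FPKM, unless stated. Alternatives covered pseudocount, filter, status, scaling, trend and each hairpin left out. Nanog, Cdkn1a and 4 other list genes were not found under any listed name and were not analysed here.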

Additional observations from a re-analysis of the deposited data

Results flagged for a closer look

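Lin28b stood above both controls in shFox2-1 and below both in shFox2-2, so the 2 Rbfox2 hairpins lay on opposite sides, 0.700 FPKM apart. The difference was not tested, and all 4 intervals overlapped.

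Clusters carrying the gene ID but lying outside the listed locus numbered 20 for Msi2, 3 for Lin28b and 5 for Igf2bp1. They are enriched over the untagged library and fall in no span whose expression was measured under that gene's name.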

How the results depend on the processing

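No paired analysis was possible because the columns pool the 2 libraries of a hairpin and carry no replicate number. No gene of the 7 passed limma's adjusted p of 0.05 under any alternative run in which it was tested. Igf2bp1 was tested only with failed status kept. With status OK required in all 4 hairpins, 3 genes were tested, and Msi1, Lin28b and Igf2bp3 were not. The number with an unadjusted limma p under 0.05, 0, was 1 with only expressed entries (Msi1), 1 without the trend (Igf2bp2), 1 with failed status kept (Igf2bp1), 1 without shFox2-1 (Igf2bp2) and 2 without shFox2-2 (Msi1 and Igf2bp3). Msi1 kept a negative log2 fold change, between -0.93 without shFox2-2 and -0.18 without shFox2-1, Igf2bp2 one between -0.33 and -0.19, and Igf2bp1, with failed status kept, a positive one between 0.24 and 0.30. With 1 hairpin left out, the log2 fold change ranged from -0.055 (without shFox2-1) to 0.15 for Msi2, from -0.073 (without shLuc) to 0.078 for Lin28a, from -0.28 to 0.14 (without shFox2-2) for Lin28b and from -0.43 to 0.0019 (without shFox2-1) for Igf2bp3. Each range crosses 0. Further changes of sign were Msi2 at -0.0089 and Lin28b at 0.052 without shGFP, and Lin28a at -0.0041 without shFox2-1 and -0.017 under quantile normalization. The number of genes separated by interval, 0, was 2 by FPKM values alone and 1 with intervals narrowed to 1 standard error, which are looser by construction, and between 0 and 2 with a hairpin left out (2 without shFox2-2, Msi1 and Igf2bp3). With failed status kept these were 3, 2 and between 0 and 2, the 1 without shGFP being Igf2bp1. Clusters numbered 80 by gene ID, 40 at a fold of at least 2, 24 at or above the median coverage and 20 without untagged reads, against 52. At a fold of at least 2, Lin28a kept 0 of its 4 clusters. Alternatives keeping failed entries, or only clusters without untagged reads, were chosen after seeing the data.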
